A study of Mus musculus with 3 samples.

Results

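Hox genes are described here in stromal cells of experimental subcutaneous masses from a mouse model of heterotopic ossification (HO, bone formed outside the skeleton). The members were all rows of the gene table whose symbol is Hoxa, Hoxb, Hoxc or Hoxd followed by a number alone. The rule took 40 of 31053 rows and 39 symbols, because Hoxd4 has 2 identifiers, which were kept apart. The 40 rows fall into 4 clusters and 13 paralogue groups.

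The 3 groups were CD-1 female mice, aged 6 to 8 weeks, studied at day 5, and each gave 1 single-cell library. Matrigel-only mice received a growth factor-reduced basement membrane gel without added bone morphogenetic protein, and were not given the drug palovarotene. Vehicle mice received Matrigel with rhBMP2 (recombinant human bone morphogenetic protein, which induces cartilage and bone) and corn oil/DMSO by mouth. Palo mice received the rhBMP2 mixture and 4 mg/kg palovarotene, an agonist of retinoic acid receptor gamma. The gel was placed under the ventral skin, and which site or animal a cell came from is not given in the labels. Since every condition has a single library, the conditions could not be compared by a test, and differences between animals, sites or preparations cannot be told apart from those of treatment. All intervals below cover counting error only.

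Hox proteins are homeodomain transcription factors that give cells of the embryo their address along the head to tail axis. Within a cluster the genes lie in the order of their paralogue groups, with low numbers used further forward and the highest numbers in the tail, limb tips and genitalia. Fibroblasts of the adult skin keep a Hox pattern of the place where they arose, and retinoic acid is a known inducer of the low-numbered genes in the embryo.

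A stromal cell was one in which Col1a1, Col1a2, Col3a1, Dcn and Lum together gave at least 1% of the unique molecular identifiers (UMIs, each marking 1 captured molecule). This class held 2085 of 8728 cells in Matrigel-only, 1373 of 5478 in Vehicle and 1184 of 7297 in Palo. The 12 stromal markers that the rule had not used, among them Pdgfra and Prrx1, were all over 3 UMIs in the class in every library. They also passed 3 UMIs in the macrophages described below, so this floor does not tell the classes apart. Their sum was 28252 CPM (UMIs of a gene per 1000000 UMIs of the class) in Matrigel-only, 22403 CPM in Vehicle and 28569 CPM in Palo. In macrophages it was 237, 267 and 151 CPM. Sparc gave most of the stromal sum, at 15066, 13900 and 16641 CPM. Pdgfra measured 246, 89.2 and 205 CPM and Prrx1 725, 373 and 734 CPM, both lowest in Vehicle. Pdgfrb, Col6a1, Col6a2 and Serpinf1 were highest in Vehicle. The class gave 20049136, 23591212 and 15832240 UMIs, with medians of 9082, 17114 and 12955 per cell in Matrigel-only, Vehicle and Palo, so Vehicle cells were the deepest. Cartilage markers stood at 1.10 CPM in Matrigel-only, 3546 CPM in Vehicle and 1.58 CPM in Palo, and Acan, which encodes the cartilage proteoglycan aggrecan, was detected in 1, 779 and 4 stromal cells. Libraries shared at most 17 cell barcodes.

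Hox transcripts were a general property of the stromal cells in all 3 libraries. Their summed level was 418 CPM (95% interval 409 to 427) in Matrigel-only, 494 CPM (485 to 503) in Vehicle and 481 CPM (470 to 492) in Palo. After each cell was thinned to 3000 UMIs, a Hox UMI was present in 69.8% of 1883 stromal cells in Matrigel-only, 74.6% of 1304 in Vehicle and 73.4% of 1131 in Palo. Without thinning the shares were 89.9%, 96.3% and 95.1%. In macrophages, the largest other class and one of blood origin, the thinned share was 5.25%, 5.83% and 4.56% in the same order. It covers the 2868 of 5749, 1389 of 2414 and 4210 of 5471 macrophages with at least 3000 UMIs. Median depths over all macrophages were 2996, 3405 and 4160 UMIs.

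The posterior end of the code was nearly silent. Of the 40 rows, 19 had a mean of at least 5 CPM over the 3 libraries and 5 lay between 1 and 5 CPM. Another 5, namely Hoxa6, Hoxa11, Hoxb1, Hoxc11 and Hoxd3, were under 1 CPM but over the floor of 3 UMIs in some library. Hoxa13, Hoxc13, Hoxd1, Hoxd10 and both Hoxd4 rows gave 1 or 2 UMIs in 1 library and 0 in the others. Hoxb13, Hoxc12, Hoxd11, Hoxd12 and Hoxd13 gave 0 UMIs in all 3, for which the limit that a count of 0 allows is 0.150 CPM in Matrigel-only, 0.127 CPM in Vehicle and 0.189 CPM in Palo. The exonic bases of Hoxd3 and Hoxd4 are shared on the same strand, with each other or a predicted transcript, for 62.3% and 52.3%, so their few UMIs are uncertain. Paralogue groups 11 to 13 together took 0.131%, 0.206% and 0.433% of the Hox UMIs of Matrigel-only, Vehicle and Palo. Groups 5 to 8 took the most, at 52.8%, 50.7% and 46.3%, and groups 9 and 10 took 27.1%, 28.6% and 31.3%. By cluster, Hoxc held 48.8%, 46.4% and 44.8% of Hox UMIs in Matrigel-only, Vehicle and Palo, and Hoxd held 7.21%, 6.54% and 6.46%.

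**Figure D1:**
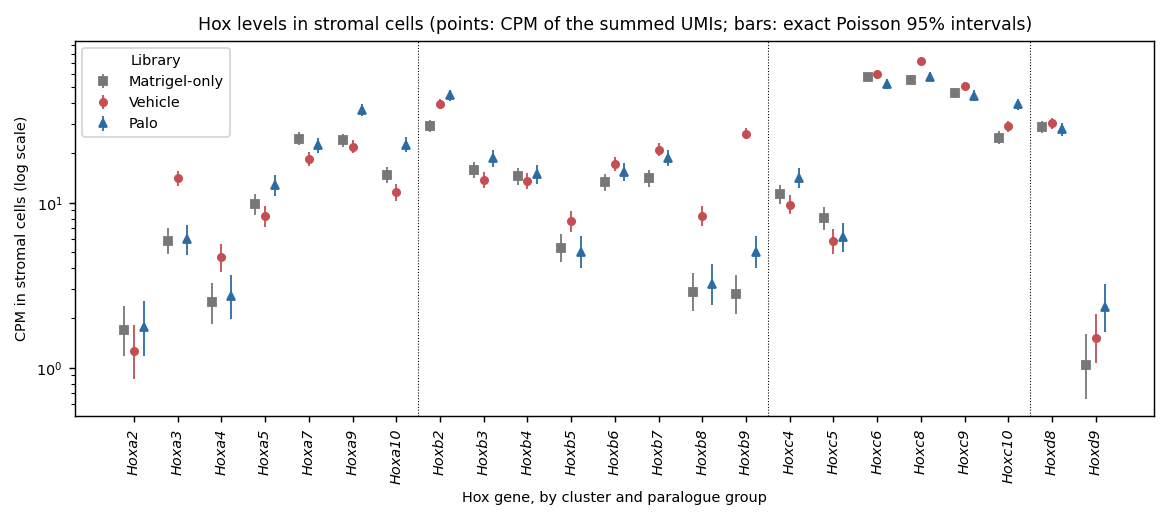
CPM of 23 of the 24 Hox genes with a mean of at least 1 CPM in stromal cells (log axis), ordered by cluster and paralogue group, for Matrigel-only (squares), Vehicle (circles) and Palo (triangles), with exact Poisson 95% intervals. Most genes sit at a similar level in the 3 libraries, while Hoxb9 stands at 26.2 CPM in Vehicle against 2.79 and 5.05 CPM in Matrigel-only and Palo.

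The largest difference between the libraries was in Hoxb9, a gene of the lower trunk code on chromosome 11 (mm10, chr11:96271457-96276595, plus strand). The Matrigel-only, Vehicle and Palo libraries gave 56, 618 and 80 Hoxb9 UMIs. These correspond to 2.79 CPM (95% interval 2.11 to 3.63), 26.2 CPM (24.2 to 28.3) and 5.05 CPM (4.01 to 6.29). Vehicle thus stood far above both other libraries, and the intervals did not overlap. The log2 ratio was 3.23 (2.83 to 3.65) for Vehicle over Matrigel-only, -2.37 (-2.73 to -2.04) for Palo over Vehicle and 0.86 (0.34 to 1.37) for Palo over Matrigel-only.

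Many Vehicle cells carried the Hoxb9 signal. A Hoxb9 UMI was seen in 335 of 1373 Vehicle stromal cells, with at most 9 in 1 cell, and the 10 cells with the most held 10.0% of the UMIs. In Matrigel-only 44 of 2085 cells and in Palo 60 of 1184 cells had one. Thinned to 3000 UMIs the shares were 0.633%, 6.95% and 1.32% for Matrigel-only, Vehicle and Palo. Macrophages gave 1, 3 and 1 Hoxb9 UMIs in the 3 libraries.

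Hoxb8 and Hoxa3 also stood over 2-fold higher in Vehicle than in each of the others. Hoxb8, which lies next to Hoxb9 in the cluster (chr11:96281905-96285315, plus strand), measured 2.89 CPM in Matrigel-only, 8.35 CPM in Vehicle and 3.22 CPM in Palo. Its mean of 4.82 CPM fell just under the limit of 5 CPM, so it is outside the counts of genes past 1.5-fold. The log2 ratio was 1.53 (1.10 to 1.98) for Vehicle over Matrigel-only and -1.37 (-1.85 to -0.92) for Palo over Vehicle. Hoxa3, a gene of the neck and upper chest code (chr6:52169062-52213336, minus strand), measured 5.89 CPM, 14.1 CPM and 6.00 CPM in Matrigel-only, Vehicle and Palo. Its log2 ratio was 1.26 (0.95 to 1.57) for Vehicle over Matrigel-only, and -1.23 (-1.57 to -0.90) for Palo over Vehicle. In the annotation used here, 8.01% of the exonic bases of Hoxa3 are shared on the same strand with the predicted gene Gm28308. For Hoxb8 and Hoxb9 no such overlap was found.

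The 250 bases upstream of the Hoxb8 and Hoxa3 starts are shown because these genes had the same order of libraries at different places of the code (RefSeq, GRCm38.p6, 5′ to 3′ on the gene's strand). Capitals mark TTTATG or its reverse complement, letters found in sites of the caudal-type factors Cdx1, Cdx2 and Cdx4, which switch on trunk Hox genes in the embryo. The Hoxb8 stretch lies at chr11:96281655-96281904 and the Hoxa3 stretch at chr6:52213068-52213317. The RefSeq start used for Hoxa3 lies inside the gene span given above, so its stretch falls within that span.
Hoxb8: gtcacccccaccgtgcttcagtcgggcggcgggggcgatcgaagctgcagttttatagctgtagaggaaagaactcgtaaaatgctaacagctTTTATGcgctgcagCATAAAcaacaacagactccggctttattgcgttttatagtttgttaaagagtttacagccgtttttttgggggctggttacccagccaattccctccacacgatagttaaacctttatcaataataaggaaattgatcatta
Hoxa3: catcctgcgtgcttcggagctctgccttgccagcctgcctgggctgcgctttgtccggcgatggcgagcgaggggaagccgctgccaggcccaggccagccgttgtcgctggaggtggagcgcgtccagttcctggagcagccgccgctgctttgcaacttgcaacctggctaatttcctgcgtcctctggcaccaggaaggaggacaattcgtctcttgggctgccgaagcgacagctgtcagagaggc

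Hoxb8 holds the letters at 2 places, once on each strand, and Hoxa3 at none. In the RefSeq table of windows from 250 bases before to 50 after each start, 5 of 24 Hox windows and 11.9% of all 32851 windows held TTTATG. The table matched 22 of the 39 Hox symbols. A match is a description of letters and not a bound site. Cdx1 gave 1, 8 and 1 UMIs in stromal cells of Matrigel-only, Vehicle and Palo, and Cdx2 and Cdx4 gave 0.

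Among the 5 genes of the Hoxa cluster with at least 5 CPM, the group 5 to 10 members lay highest in Palo or changed little. Hoxa9, used from the lower trunk backward, measured 23.8 CPM in Matrigel-only, 21.9 CPM in Vehicle and 36.4 CPM in Palo. Its log2 ratio was 0.74 (0.56 to 0.91) for Palo over Vehicle and 0.61 (0.43 to 0.79) for Palo over Matrigel-only. Hoxa10, a lumbar gene known also for its role in the uterus, measured 14.8 CPM, 11.6 CPM and 22.5 CPM. The corresponding log2 ratios of Hoxa10 were 0.96 (0.73 to 1.19) and 0.61 (0.38 to 0.83). For both genes the Palo interval lay above those of the other two libraries.

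Hoxa5, which patterns the lower neck and lung, measured 9.78 CPM in Matrigel-only, 8.27 CPM in Vehicle and 12.8 CPM in Palo. The Palo over Vehicle log2 ratio of Hoxa5 was 0.63 (0.34 to 0.92), while that over Matrigel-only was 0.38 (0.09 to 0.68). Hoxa7, a thoracic gene, measured 24.4 CPM, 18.5 CPM and 22.3 CPM, and was thus lowest in Vehicle. Hoxa11, a gene of the limb and the reproductive tract, gave 4, 8 and 23 UMIs. Its 23 Palo UMIs came from 21 cells.

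The 250 bases before the Hoxa9 and the distal Hoxa10 start are given because both genes were highest in Palo (RefSeq, GRCm38.p6, minus strand). No letters are in capitals, since neither AGGTCA nor TTTATG nor the letters GGCGCC are present in these stretches. The 250 bases before the proximal Hoxa10 start, which are not shown, do hold GGCGCC. The Hoxa9 stretch is at chr6:52227371-52227620 and the Hoxa10 stretch at chr6:52240855-52241104. The RefSeq start used for Hoxa9 lies inside the gene's span in the annotation used here (chr6:52223100-52231089), and so does its stretch.
Hoxa9: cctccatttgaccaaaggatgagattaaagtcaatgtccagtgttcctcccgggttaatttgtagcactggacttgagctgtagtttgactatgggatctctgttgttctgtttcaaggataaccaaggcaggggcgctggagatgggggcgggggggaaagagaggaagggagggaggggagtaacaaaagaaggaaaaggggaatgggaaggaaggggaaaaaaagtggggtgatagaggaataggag
Hoxa10: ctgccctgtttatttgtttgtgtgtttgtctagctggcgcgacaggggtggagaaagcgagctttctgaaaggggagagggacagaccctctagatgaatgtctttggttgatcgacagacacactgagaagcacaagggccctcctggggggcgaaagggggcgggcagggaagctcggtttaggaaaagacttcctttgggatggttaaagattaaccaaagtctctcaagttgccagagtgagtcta

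Retinoic acid receptors bind pairs of half-sites such as AGGTCA. A pair of half-sites in tandem (each being AGGTCA, the form AGTTCA, the form GGGTCA or the form GGTTCA, on either strand) with 5 bases between was found in 0 of 24 Hox windows and 0.0974% of all windows. With 2 bases between, the figures were 0 of 24 and 0.268%. A lone AGGTCA was present in 7 of 24 Hox windows, those of Hoxa5, Hoxb4, Hoxc4, Hoxd3, Hoxd4, Hoxd8 and Hoxd10, and in 16.3% of all windows. GGCGCC was present in 5 of 24 and 11.9% of all, and TGATTGAT, a site of Pbx and Hox pairs, in 2 of 24 and 0.746% of all. Known retinoid elements of the Hox clusters that lie further off are not covered by these windows.

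The Hoxb cluster summed to 97.8 CPM in Matrigel-only, 147 CPM in Vehicle and 126 CPM in Palo. Hoxb2, a hindbrain and neck gene, measured 29.1 CPM, 39.7 CPM and 44.8 CPM, and its Palo over Matrigel-only log2 ratio was 0.62 (0.46 to 0.78). Hoxb5 measured 5.34 CPM, 7.71 CPM and 5.05 CPM, with a Palo over Vehicle log2 ratio of -0.61 (-1.01 to -0.22). Hoxb6 measured 13.3 CPM, 17.1 CPM and 15.4 CPM. Hoxb7 measured 14.1 CPM, 21.0 CPM and 18.7 CPM, and its Vehicle over Matrigel-only log2 ratio of 0.58 (0.36 to 0.79) fell just short of 1.5-fold. Hoxb3 measured 15.8 CPM, 13.8 CPM and 18.6 CPM, and Hoxb4 measured 14.5 CPM, 13.5 CPM and 14.9 CPM. Apart from Hoxb9, the Hoxb genes with at least 5 CPM differed by at most 1.54-fold between any pair of libraries.

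The Hoxc cluster took the most UMIs, and 5 of its 6 genes over 5 CPM stayed within 1.5-fold in every comparison. Hoxc6, a chest-level gene, measured 57.8 CPM in Matrigel-only, 60.4 CPM in Vehicle and 52.5 CPM in Palo. Hoxc8 measured 55.8 CPM, 72.0 CPM and 58.0 CPM, and Hoxc9 measured 46.2 CPM, 51.1 CPM and 44.5 CPM. Hoxc10, a gene of the lumbar region and hindlimb, differed more, at 24.7 CPM, 29.1 CPM and 39.5 CPM, with a Palo over Matrigel-only log2 ratio of 0.68 (0.50 to 0.85). Hoxc4 measured 11.3 CPM, 9.75 CPM and 14.1 CPM, and Hoxc5 measured 8.08 CPM, 5.85 CPM and 6.19 CPM. Hoxc5 and Hoxc10 share 5.37% and 8.70% of their exonic bases on the same strand, and reads of the shared bases do not tell the genes apart. The last exonic bases of these genes, at the 3′ end, were not shared.

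In the Hoxd cluster Hoxd8 alone was over 5 CPM, at 28.7 CPM in Matrigel-only, 30.3 CPM in Vehicle and 27.9 CPM in Palo, which is flat within the intervals. Hoxd9 measured 1.05 CPM, 1.53 CPM and 2.34 CPM. Of the low genes in the other clusters, Hoxa2 measured 1.70 CPM, 1.27 CPM and 1.77 CPM, and Hoxa4 measured 2.49 CPM, 4.66 CPM and 2.72 CPM. Hoxb1, a hindbrain gene known to respond to retinoic acid, gave 0, 1 and 4 UMIs in Matrigel-only, Vehicle and Palo.

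**Figure D2:**
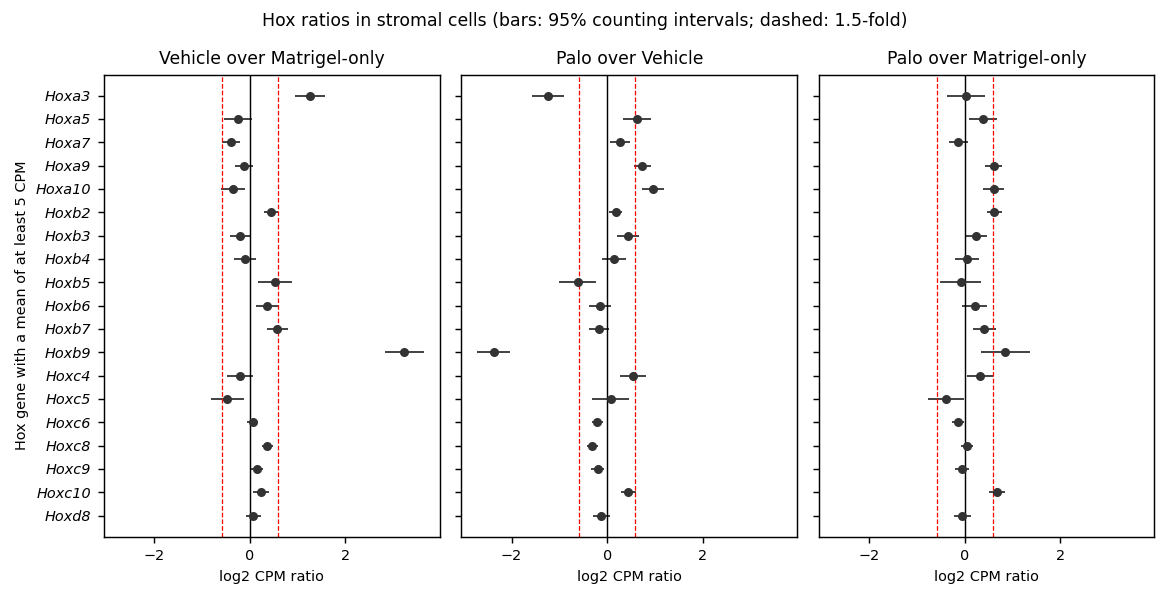
Log2 CPM ratios of the 19 Hox genes with a mean of at least 5 CPM in stromal cells for Vehicle over Matrigel-only, Palo over Vehicle and Palo over Matrigel-only, with 95% counting intervals and dashed lines at 1.5-fold. Hoxa3 and Hoxb9 lie to the right in the first panel and to the left in the second, Hoxa5, Hoxa9 and Hoxa10 pass 1.5-fold to the right in the second, and the third panel spans -0.38 to 0.86.

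Genes past 1.5-fold and median log2 ratios were taken over the 19 genes with at least 5 CPM. Vehicle over Matrigel-only had 2 genes past 1.5-fold higher, Hoxa3 and Hoxb9, and 0 lower, where 10.7% of all 10311 genes of that level were past the limit higher and 17.6% lower. With TMM or median-of-ratios size factors Hoxb5 and Hoxb7 also passed, for 4 genes higher. Under these factors the median log2 ratio of all genes also rose, from -0.04 to 0.02 and 0.03. The count of genes higher was 7 in cells without Pi16, Sox9 and Acan, 6 in Sox9-positive cells and 1 in Pi16-positive cells, where 2, 1 and 2 genes were lower. The limit of 5 CPM was applied anew within each state, so the genes counted there are not the same 19. In Pi16-positive cells the mean of Hoxb9 was under that limit, so its ratio is not in the count. With a minimum of 2 CPM or 10 CPM in place of 5 CPM it was 5 or 1. The median log2 ratio was 0.08, against -0.04 over all genes. Palo over Vehicle had 3 genes higher, Hoxa5, Hoxa9 and Hoxa10, and 3 lower, Hoxa3, Hoxb5 and Hoxb9, where 14.0% of all genes were higher and 9.39% lower. These counts were 5 and 5 in cells without the 3 markers Pi16, Sox9 and Acan, and 6 genes were lower at a minimum of 2 CPM, 1 at 10 CPM and 5 in Sox9-positive cells, while 0 were higher at 2-fold. The share of all genes was not computed for these size factors, states and other limits, so such counts have no background beside them. In Vehicle, the cells without the markers and the Pi16-positive cells gave only 1568328 and 959135 UMIs. The median of the 19 was 0.08, against 0.02 over all genes. Both comparisons use the Vehicle library, so a gene that stands out in Vehicle passes in both. Hoxb9 is such a gene, and its mean reached 5 CPM only through Vehicle.

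In Palo over Matrigel-only 5 of the 19 genes were higher, Hoxa9, Hoxa10, Hoxb2, Hoxb9 and Hoxc10, and 0 were lower. Over all genes 2.73% were higher and 6.35% lower. Hoxb9, at 2.79 CPM in Matrigel-only and 5.05 CPM in Palo, was among the genes counted only through its 26.2 CPM in Vehicle. That library is outside this comparison. The count of 5 fell to 3 in stromal cells with 0 Ptprc UMIs, to 2 in cells without Pi16, Sox9 and Acan or with states reweighted to the Matrigel-only shares, to 1 in Pi16-positive cells and to 0 at 2-fold. For these settings too, the share of all genes was not computed. The median log2 ratio of the 19 was 0.21, against -0.03 over all genes. The sum over all 40 rows had a log2 ratio of 0.24 (0.20 to 0.28) for Vehicle over Matrigel-only, -0.04 (-0.08 to 0.00) for Palo over Vehicle and 0.20 (0.16 to 0.25) for Palo over Matrigel-only. Without Hoxb9 the first of these was 0.17 (0.13 to 0.21) and the second 0.03 (-0.02 to 0.07). Paralogue group 10 stood at 39.5 CPM in Matrigel-only, 40.7 CPM in Vehicle and 62.0 CPM in Palo.

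The stromal cells were next split by detection of Pi16, a marker of a fibroblast progenitor state, Sox9, the master regulator of cartilage, and Acan. None of the 3 was found in 579 Matrigel-only, 123 Vehicle and 463 Palo cells. Cells with Pi16 alone, called Pi16-positive here, numbered 1012, 80 and 312. Cells with Sox9 but no Pi16 or Acan, called Sox9-positive, numbered 353, 339 and 349. Cells with both Pi16 and Sox9 numbered 140, 52 and 56. Of the Vehicle stromal cells 56.7% were Acan-positive. A gene missed at low depth puts a cell in the first state, so the states are ranges of detection.

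Summed Hox levels were of the same order in every state. Among cells with none of the 3 markers they were 408 CPM in Matrigel-only, 499 CPM in Vehicle and 470 CPM in Palo, and among Pi16-positive cells 413 CPM, 437 CPM and 433 CPM. In Sox9-positive cells the sums were 432 CPM, 537 CPM and 530 CPM. The Acan-positive cells of Vehicle had 480 CPM (468 to 491), between the Pi16-positive and the Sox9-positive cells of the same library.

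Hoxb9 was lower in Pi16-positive cells of Matrigel-only and Vehicle. Cells without the 3 markers measured 4.04 CPM in Matrigel-only, 28.7 CPM in Vehicle and 4.72 CPM in Palo, and Pi16-positive cells 0.965 CPM, 7.30 CPM and 3.05 CPM. The log2 ratio of Pi16-positive cells over those without markers was -2.06 (-3.43 to -0.86) in Matrigel-only and -1.98 (-3.37 to -0.82) in Vehicle. In Palo it was -0.63 (-1.83 to 0.44), an interval that covers 0. Pi16-positive cells gave 8292471, 959135 and 3282820 UMIs of all genes, so their Hoxb9 levels rest on few UMIs. Over the 3 libraries, which here are replicates of the state, edgeR's quasi-likelihood test with library as a block gave a log2 fold change of -1.50 ± 0.31 (SE) and a Benjamini-Hochberg adjusted p of 0.0104. The call was lost without the Matrigel-only library (adjusted p 0.119 by edgeR) and without the block on library (adjusted p 0.384 by edgeR). Cells with both Pi16 and Sox9 were left out of this contrast. In them Hoxb9 was not clearly below the level without markers in Matrigel-only or Palo.

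The difference between libraries in Hoxb9 was seen within some states. Vehicle exceeded Matrigel-only and Palo among cells with none of the markers. Among Pi16-positive cells the log2 ratio was 2.92 (1.22 to 4.58) for Vehicle over Matrigel-only, but the -1.26 (-2.80 to 0.37) of Palo over Vehicle had an interval that covers 0. Among Sox9-positive cells the levels were 4.23 CPM in Matrigel-only, 33.7 CPM in Vehicle and 6.48 CPM in Palo. In Acan-positive Vehicle cells Hoxb9 measured 25.2 CPM, below the Sox9-positive cells with a log2 ratio of -0.42 (-0.67 to -0.16). In cells with both Pi16 and Sox9 it measured 3.88, 4.58 and 5.77 CPM, and these intervals overlapped. When the states without Acan were weighted to the Matrigel-only shares, the Vehicle over Matrigel-only log2 ratio of Hoxb9 was 2.77.

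Hoxa7 was the other Hox gene called in the Pi16 contrast. It measured 21.4 CPM, 13.4 CPM and 21.1 CPM in cells without the 3 markers and 28.3 CPM, 25.0 CPM and 25.0 CPM in Pi16-positive cells of Matrigel-only, Vehicle and Palo. The log2 fold change was 0.48 ± 0.15 (SE), with an adjusted p of 0.0473 by edgeR, and 9 of the 14 alternatives ended the call, with adjusted p between 0.0519 and 0.267, among them each fit without 1 library. Of 24 Hox genes tested, 1 rose and 1 fell, and over all 12114 genes 11.1% rose and 10.7% fell. The share of Hox genes called was below that background. By edgeR 4 of the 24 had an unadjusted p under 0.05, but the share of all genes at that limit was not computed.

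In Sox9-positive cells 0 of 24 Hox genes rose or fell by edgeR, and 2, Hoxa9 and Hoxc5, had an unadjusted p under 0.05. The share of all genes at that unadjusted limit was not computed, so these 2 have no background beside them. Across all 12114 genes 1 rose (0.00825%) and 0 fell (0.00%), so this contrast separated few genes of any kind. DESeq2 also called 0 Hox genes. The median log2 fold change of the 24 was 0.11, against 0.00 over all genes. For Hoxa9, which was not called, the level was 21.4 CPM in Matrigel-only, 12.1 CPM in Vehicle and 36.1 CPM in Palo without the markers. With Sox9 it was 29.9 CPM, 23.5 CPM and 40.8 CPM.

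Hoxa3 was high in Vehicle in 3 states. It measured 14.0 CPM without the markers, 14.7 CPM with Sox9 and 14.9 CPM with Acan in Vehicle, but 6.26 CPM in Pi16-positive cells, close to the 5.91 CPM of Matrigel-only and 6.40 CPM of Palo in that state. Among Pi16-positive cells the log2 ratio of Hoxa3 was 0.08 (-1.43 to 1.31) for Vehicle over Matrigel-only and 0.03 (-1.32 to 1.63) for Palo over Vehicle. These wide intervals take in the ratios found over all stromal cells, so the counts do not settle whether Hoxa3 differed in this state. Hoxb8 showed 15.3 CPM, 11.2 CPM and 6.68 CPM in Vehicle cells without markers, with Sox9 and with Acan. Hoxa10 was higher in Palo than in Vehicle, at 21.1 against 10.2 CPM without markers and 21.0 against 10.5 CPM with Sox9. The log2 ratios of Hoxa10 were 1.05 (0.30 to 1.90) and 0.99 (0.54 to 1.45) in these states. With Pi16 it measured 25.3 against 16.7 CPM, with a log2 ratio of 0.60 whose interval (-0.18 to 1.47) covers 0.

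**Figure D3:**
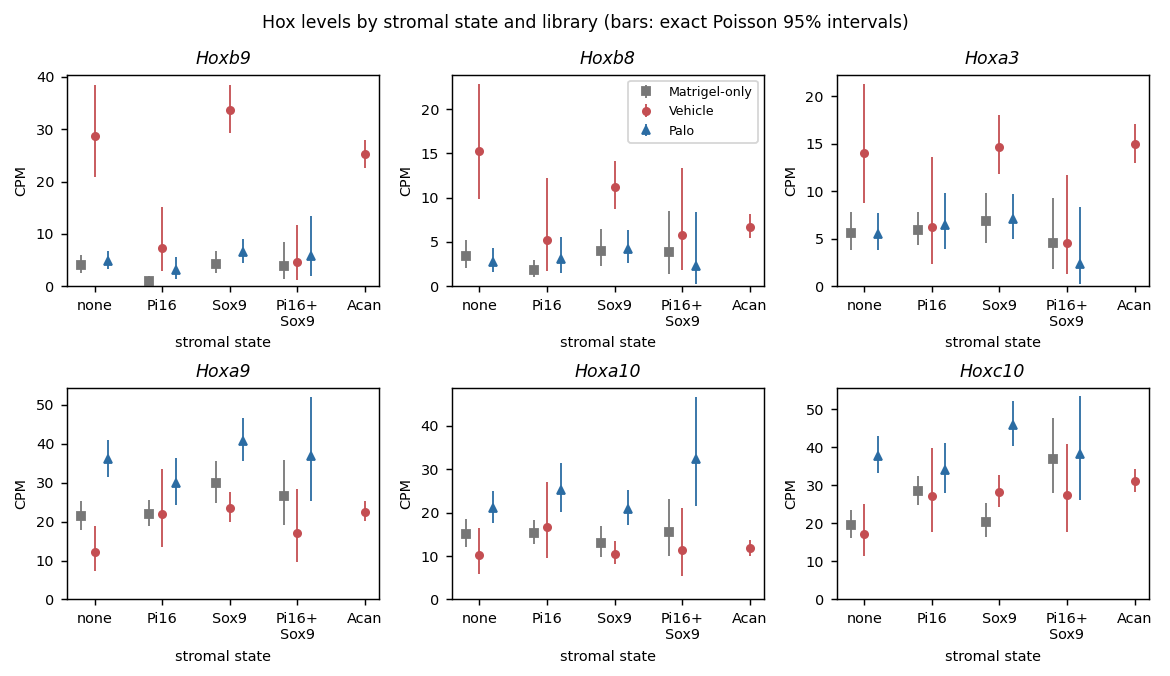
CPM of Hoxb9, Hoxb8, Hoxa3, Hoxa9, Hoxa10 and Hoxc10 by stromal state (none of the markers, Pi16, Sox9, Pi16 with Sox9, Acan) in Matrigel-only (squares), Vehicle (circles) and Palo (triangles), with exact Poisson 95% intervals. The Acan state is drawn for Vehicle alone because the others held 1 and 4 such cells. Hoxb9 in Vehicle falls from 33.7 CPM with Sox9 to 7.30 CPM with Pi16.

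Macrophages, defined by 7 genes such as C1qa and Csf1r at 1% of UMIs or more, showed a different and much smaller Hox set. Summed Hox levels were 17.9 CPM in Matrigel-only, 22.6 CPM in Vehicle and 15.0 CPM in Palo. Hoxb4, known for its role in blood stem cells, measured 8.35 CPM, 9.01 CPM and 7.92 CPM in macrophages, against 14.5 CPM, 13.5 CPM and 14.9 CPM in stromal cells. Hoxb3 in macrophages measured at most 2.59 CPM. For the other 17 genes with at least 5 CPM, the macrophage level was a median of 1.46%, 2.05% and 0.761% of the stromal level.

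The 2876, 1207 and 2736 macrophages of Matrigel-only, Vehicle and Palo with the fewest stromal UMIs were taken to see whether Hoxb4 moved with stromal RNA. In them Hoxb4 still measured 7.88 CPM in Matrigel-only, 8.71 CPM in Vehicle and 7.43 CPM in Palo. Hoxc6, high in stromal cells, measured 0.272 CPM, 0.356 CPM and 0.347 CPM in the same cells, from only 3, 2 and 5 UMIs. In all macrophages Hoxc6 measured 0.666 CPM in Matrigel-only, 0.932 CPM in Vehicle and 0.384 CPM in Palo. Such small counts allow no close comparison.

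**Figure D4:**
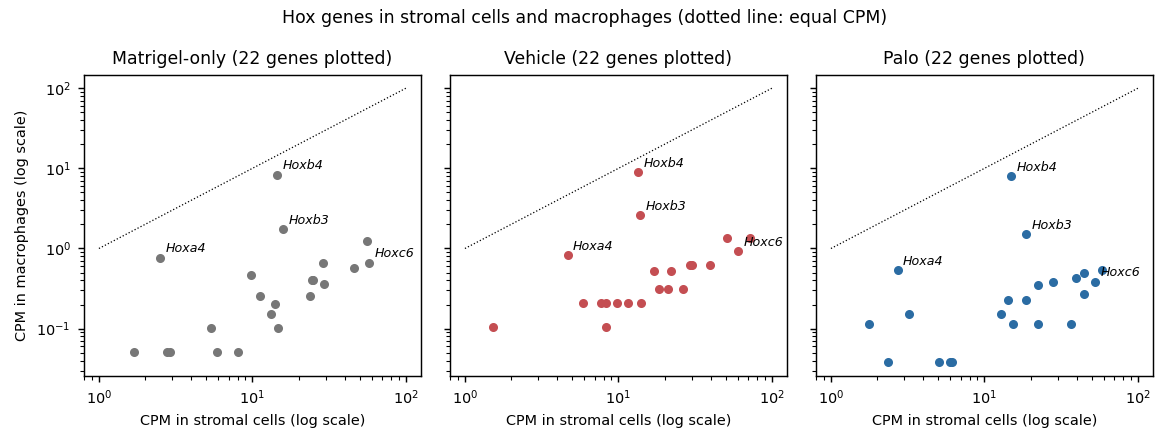
CPM in stromal cells (horizontal, log axis) against CPM in macrophages (vertical, log axis) for the 23 Hox genes of the plot of levels, 1 panel per library, leaving out a gene at 0 in macrophages. The dotted line marks equal levels. Hoxb4 lies nearest to the line among the genes over 5 CPM, at 8.35, 9.01 and 7.92 CPM in macrophages, and Hoxc6 stays under 1 CPM.

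Hox proteins bind DNA with Pbx, Meis and Pknox partners. Of the 9 partner genes 7 had at least 5 CPM, of which 3 were past 1.5-fold lower in Vehicle over Matrigel-only and the same 3 higher in Palo over Vehicle, while 0 passed in Palo over Matrigel-only. The shares of all genes past the limit were 17.6% lower in the first comparison, 14.0% higher in the second, and 2.73% higher and 6.35% lower in the last. Meis1 measured 29.1 CPM in Matrigel-only, 18.3 CPM in Vehicle and 29.9 CPM in Palo, and Meis3 measured 20.7 CPM, 9.58 CPM and 20.5 CPM. Meis2 was flat at 51.6 CPM, 48.7 CPM and 53.1 CPM. Meis1 and Meis3 were thus lowest in Vehicle, and a link with Hoxb9 was not tested.

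Other positional factors were a list of 26 genes, of which 13 had at least 5 CPM. In Vehicle over Matrigel-only 6 were past 1.5-fold lower and 2, Irx3 and Irx5, higher. The same 6 were past 1.5-fold higher in Palo over Vehicle. Over all genes 17.6% were lower and 10.7% higher in the former comparison, and 14.0% higher in the latter, and both comparisons use the Vehicle library. Nr2f1, an orphan nuclear receptor, measured 17.5 CPM in Matrigel-only, 5.85 CPM in Vehicle and 24.1 CPM in Palo. Emx2 measured 35.7 CPM, 11.7 CPM and 24.3 CPM, and Tbx5, a forelimb and upper body factor, 13.2 CPM, 3.48 CPM and 7.64 CPM. Pitx1, a hindlimb factor, measured 8.13 CPM, 3.90 CPM and 7.33 CPM, and En1, which marks ventral limb skin and a trunk fibroblast lineage, measured 51.8 CPM, 47.2 CPM and 57.7 CPM. In Palo over Matrigel-only Tbx5 alone of the 13 passed 1.5-fold, and it was lower in Palo. Over all genes 2.73% were higher and 6.35% lower in that comparison, so this count was near the background.

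Of the chromatin regulators of the Hox clusters, 16 were listed. Of these, 14 had at least 5 CPM, and only Ezh1, at 22.1 CPM in Matrigel-only and 13.5 CPM in Vehicle, passed 1.5-fold in any of the 3 comparisons, where 17.6% of all genes were lower in Vehicle over Matrigel-only. Kmt2a, which maintains Hox transcription, measured 73.6 CPM, 62.2 CPM and 74.0 CPM. Ezh2 measured 28.4 CPM, 35.4 CPM and 31.8 CPM.

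Of the 7 retinoid-induced genes 4 had at least 5 CPM. Past 1.5-fold were 3 higher in Vehicle over Matrigel-only, 1 lower in Palo over Vehicle and 2 higher in Palo over Matrigel-only, where the shares over all genes were 10.7%, 9.39% and 2.73%. Crabp2 measured 4.89 CPM in Matrigel-only, 9.75 CPM in Vehicle and 12.4 CPM in Palo, and so lay lowest in Matrigel-only. Cyp26b1, which degrades retinoic acid, measured 46.5 CPM, 94.0 CPM and 38.5 CPM. Among those under 5 CPM, Cyp26a1 gave 14, 20 and 34 UMIs and Rarb gave 87, 25 and 51. Of the 7 non-coding symbols of the clusters 2 had at least 5 CPM, and both were past 1.5-fold higher in Vehicle over Matrigel-only, as were 10.7% of all genes. Hotairm1, a non-coding RNA of the Hoxa cluster, measured 16.7 CPM, 31.8 CPM and 22.2 CPM in stromal cells and 15.7 CPM, 13.1 CPM and 16.7 CPM in macrophages. Hoxd3os1 measured 4.99 CPM, 8.35 CPM and 6.38 CPM in stromal cells. The strand setting of the counting is not given in the sources used here. Whether reads of a Hox gene and of an antisense transcript were kept apart is therefore not known.

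Other markers in the stromal class also differed between the libraries. The 10 macrophage markers summed to 1014 CPM in Matrigel-only, 327 CPM in Vehicle and 859 CPM in Palo, mural markers to 48.1 CPM, 113 CPM and 46.7 CPM, and mesothelial markers to 28.2 CPM, 44.1 CPM and 11.6 CPM, with Msln and Lrrn4 at 0. Endothelial markers summed to 21.9 CPM, 8.94 CPM and 16.2 CPM, keratinocyte markers to 30.8 CPM, 17.6 CPM and 30.4 CPM and adipocyte markers to 7.03 CPM, 0.339 CPM and 0.442 CPM, while muscle and Schwann cell markers were at most 1.70 CPM and 2.33 CPM. In the same order, Cspg4 measured 11.3, 79.6 and 15.3 CPM, while Kcnj8 of the mural list measured 30.1, 6.74 and 18.3 CPM. Kdr measured 17.8, 2.54 and 11.6 CPM, while Egfl7 of the endothelial list measured 3.19, 5.30 and 3.79 CPM. Keratinocyte sums were nearly all Krt10, with Krt5 at 0 in each library. Such sums can follow single genes and do not measure the content of a cell type. All 7 cartilage markers were over 3 UMIs in Vehicle and 2 in each of the others. Their part in the Hoxb9, Hoxb8 and Hoxa3 differences was not tested beyond the split by Acan and Sox9.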

How the data were processed

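Single cells of day 5 masses from 3 groups, Matrigel-only, Vehicle and Palo, were captured on the 10x Genomics platform. Per the labels, reads were mapped by the authors against mm10 using Cell Ranger 3.0.2, and Seurat 3 served downstream. They deposited, per library, whole-number UMI counts for each barcode and each of 31053 genes, without normalization. The annotation version, the kit's read end and the strand setting are not given in the sources used here.

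Cells with 200 to 6000 genes and up to 5% mitochondrial UMIs were kept. These filters left 8728, 5478 and 7297 of 9249, 6065 and 7905 barcodes, with 42335347, 40180209 and 44682600 UMIs. Scrublet marked at most 3 cells per library at its own threshold and so did not separate doublets. No cells were removed by it, and leaving out its highest scores was tried as an alternative. UMIs were summed over the cells of a class and divided by the class total (CPM). A UMI marks 1 molecule, so levels were not divided by gene length. Intervals are exact Poisson, exact binomial (Clopper-Pearson) or conditional binomial ones at 95%, and cover counting error only. Shares of cells were computed as the mean after thinning each cell to 3000 UMIs, leaving out 202, 69 and 53 shallower stromal cells.

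Conditions have 1 library each, so no test was run between them, and genes past 1.5-fold with a mean of at least 5 CPM were counted beside the same share of all genes. States were compared on UMIs summed per library and state with edgeR 4.0.16 (quasi-likelihood test, TMM factors, library as a block, 4 residual degrees of freedom) across all genes, with Benjamini-Hochberg adjustment and a threshold of 0.05. edgeR bounds its p-value by a Poisson test where the fitted spread is below counting error. The step was tested on simulated data, and DESeq2 1.42.0 was an alternative. Positions are from GENCODE vM21 and promoter sequences from RefSeq (GRCm38.p6). Each Hox gene with a mean of at least 5 CPM is named with its values, and of the others those over 3 UMIs in some library. The members, gene lists and tests were chosen with earlier results of these data known. Some genes of these lists are not reported here.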

Additional observations from a re-analysis of the deposited data

Results flagged for a closer look

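In Vehicle, 4 cells outside the stromal and macrophage classes carried at least 3 of 6 endothelial markers, a choice made after the data were seen. They gave Hoxd8 at 242 CPM (95% interval 150 to 370, 21 UMIs in 4 of 4 cells) and Hoxd9 at 138 CPM (72 to 242, 12 UMIs in 2 of 4 cells), above the limit that a count of 0 allows. In the stromal cells of the same library Hoxd8 measured 30.3 CPM and Hoxd9 1.53 CPM. The Matrigel-only and Palo libraries held 0 such cells, so these levels could not be compared between conditions.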

How the results depend on the processing

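No result of the comparisons between conditions has a replicate check, and low genes rest on few UMIs, as for Hoxb1, Hoxa11 and Hoxd9. No paired analysis was possible between conditions because each has 1 library. The summed Hox log2 ratio of Vehicle over Matrigel-only (0.24) was 0.31 with TMM factors, 0.32 with median-of-ratios size factors, 0.29 in cells without the 3 markers, 0.080 in Pi16-positive cells, 0.32 in Sox9-positive cells without Acan and 0.18 with states reweighted. That of Palo over Vehicle was -0.086 in cells without the 3 markers, and that of Palo over Matrigel-only was 0.067 in Pi16-positive cells, 0.30 in Sox9-positive cells and 0.14 with states reweighted. Of genes past 1.5-fold, Vehicle over Matrigel-only had 4 higher with TMM factors, 4 with median-of-ratios size factors, 5 at a minimum of 2 CPM and 1 at 10 CPM. In cells without the 3 markers it had 7 higher and 2 lower, in Pi16-positive cells 1 and 2, and in Sox9-positive cells 6 and 1. The limit of 5 CPM was applied anew within each state, so the genes counted differ between states. The share of all genes was not computed for the size factors, the states or the other limits. Palo over Vehicle had 5 higher and 5 lower in cells without the 3 markers, 5 lower in Sox9-positive cells, 6 lower at 2 CPM and 1 lower at 10 CPM, and 0 higher at 2-fold. Palo over Matrigel-only had 3 higher in stromal cells with 0 Ptprc UMIs, 2 in cells without the 3 markers, 1 in Pi16-positive cells, 2 with states reweighted and 0 at 2-fold, and 1 lower in Sox9-positive cells. The log2 ratio of Hoxa3 for Palo over Vehicle turned to 0.032 in Pi16-positive cells, with a wide interval of -1.32 to 1.63. The causes were not tested. Shares of stromal cells with a Hox UMI moved with depth, to 55.5%, 60.8% and 59.7% for Matrigel-only, Vehicle and Palo at 2000 UMIs, to 85.2%, 89.0% and 87.8% at 5000 UMIs and to 89.9%, 96.3% and 95.1% without thinning. The Hox genes that rose with Pi16 (1 by edgeR) numbered 0 without the replicate block on library, with DESeq2, without TMM factors, without the filter on low counts, in cells with 0 Ptprc UMIs and with states at 2 UMIs, and also 0 when any 1 library was left out. Those that fell (1) numbered 0 without the replicate block and ranged from 0 to 1 without 1 library, with 0 where Matrigel-only was left out. The counts with Sox9 were 0 under all 14 alternatives. For Vehicle over Matrigel-only the median log2 ratio of all genes was -0.04 in CPM and 0.03 with median-of-ratios size factors. Of the single-gene ratios, 125 stayed within their counting intervals, 17 left them and 1, that of Hoxa3, turned in sign.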
